A study of Zea mays with 21 samples.

Results

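The 223 transcripts described here are long non-coding RNAs (lncRNAs) of maize root tips that were listed above 0 after 4 h of waterlogging stress (WS) and at 0 at every other time. They were chosen by their values: a transcript had to be above 0 in all 3 WS_4h libraries and at 0 in each of the other 18 libraries. This rule was met by 3.66% of the 6098 lncRNAs in the table, which is 4.99% of the 4466 lncRNAs listed at WS_4h. The material was the inbred line B73, without any transgene or mutant, and seedlings at the second leaf stage gave primary root tips, several of them mixed for each library. The groups were WS_0h, taken before the water was added, and WS_2h, WS_4h, WS_6h, WS_8h, WS_10h and WS_12h, named after the hours of waterlogging, with 3 libraries each. All plants were flooded at the same hour in the morning, so the hours under water and the time of day cannot be told apart, and no unflooded plants were taken at the later hours. The labelled tissue was not checked against marker genes here, and in such mixed tips fewer cells of a type and less RNA per cell cannot be told apart.

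A lncRNA is a transcript longer than a set minimum that is not predicted to encode a protein, and in plants such RNAs are often low in abundance and tied to a tissue, a stage or a stress. Some act near their own locus on a neighbouring gene, others bind proteins or small RNAs, and for most of them no role is known. Waterlogging deprives root cells of oxygen, and flooded roots shift from respiration to glycolysis and ethanol fermentation within hours. The transcripts below carry only the assembly's numbers (TCONS IDs), which no source used here pairs with a gene name, and no role is given for any of them. Of the 15 lncRNAs that the study names, all are in the table, 9 were listed at WS_4h and 0 are among the 223. The list holds 3.66% of all lncRNAs and 4.99% of those listed at WS_4h, so nothing is read from that 0.

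Levels are TPM, a transcript's share, after correction for length, of the transcripts quantified together in its library. Levels of different lncRNAs can thus be compared within a library. The lncRNAs summed to 774908 to 794448 TPM in the WS_4h libraries, and to 337609 to 877167 TPM over all 21. PCgenes were quantified separately and are not part of these sums. A value of 0 needs care in this table. Zeros came by whole time points: 14068 times a lncRNA had 0 in the complete set of 3 libraries of a time point, and 0 times in only 1 or 2 of them. For this reason a lncRNA is called listed or not listed here, and no fold change of a single lncRNA is given against a time point at 0. Counts and medians of differences over many lncRNAs, given further below, do include such zeros. The study's methods state a filter by condition, which removed isoforms at 0 or with a mean TPM under 0.5, yet 0.224% (WS_4h) to 12.9% (WS_12h) of the listed time point means were under 0.5 TPM. Whether a given 0 stands for no reads or for a removed value cannot be told from the table.

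The WS_4h libraries also stood apart as a whole. Each library got a median-ratio scale factor from the 2164 lncRNAs above 0 everywhere, which compares its TPM with their geometric means over all libraries. The WS_4h libraries had factors of 2.86 to 3.42. The other 18 had 0.0906 to 1.63 with a median of 1.45, so the lowest factor among them also lay far from that median. Factors of protein-coding genes (PCgenes), quantified separately, were 0.965 to 1.06 in all 21. The first percentile of the listed lncRNA means was 0.759 TPM at WS_4h, against 0.137 TPM (WS_12h) to 0.357 TPM (WS_10h) at the other time points. After rescaling of the libraries to the median library, 221 of the 223 lncRNAs kept a WS_4h mean at or above 0.357 TPM, and 2 fell below it. The bound of 0.357 TPM was taken as listed at WS_10h and was not itself rescaled.

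The 223 lncRNAs covered a wide range of levels at WS_4h. Their means over the 3 libraries ran from 0.61 to 2099 TPM, with a median of 8.73 TPM and quartiles of 3.65 and 31.7 TPM. A mean above 1 TPM was found for 219 of them, above 10 TPM for 104, above 100 TPM for 30 and above 1000 TPM for 6. The other 4243 lncRNAs listed at WS_4h had a median of 12.9 TPM, so the lncRNAs listed only there were somewhat lower, and 41.7% of them lay above the median of all lncRNAs listed at WS_4h (12.6 TPM). The plot of each library by rank shows this range, in which a few very abundant lncRNAs precede a long run of modest ones.

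**Figure D1:**
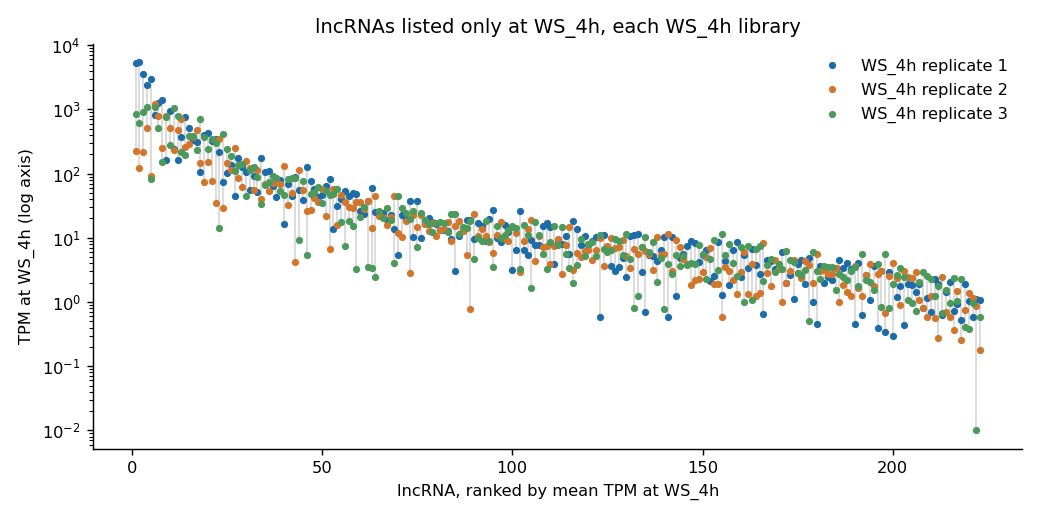
TPM of each of the 223 lncRNAs listed only at WS_4h (log axis) in the 3 WS_4h libraries, ranked by mean TPM, with a grey line from the lowest to the highest library. Means run from 0.61 to 2099 TPM, and the 5 highest are led by replicate 1.

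The most abundant of them differed strongly between the WS_4h libraries. TCONS_00199458 had 5233, 228 and 835 TPM in WS_4h replicates 1, 2 and 3. TCONS_00142275 had 5395, 120 and 613 TPM, and TCONS_00199395 had 3613, 218 and 926 TPM. In these lncRNAs replicate 1 lay far above the others and replicate 2 lowest, with a highest to lowest ratio of 23.0, 44.9 and 16.6. TCONS_00029767 had 2377, 509 and 1071 TPM in the same order of libraries. TCONS_00199384 had 3020, 91.9 and 81.3 TPM, so nearly all of its mean of 1064 TPM came from replicate 1. TCONS_00028405 had 1403, 252 and 154 TPM, again highest in replicate 1.

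Replicate 1 was the highest library in 8 of the 12 highest lncRNAs, and the other 4 differed. TCONS_00199414 had 832, 1226 and 1077 TPM and was the steadiest of the 12, at 1045 ± 199 TPM (SD, n = 3). TCONS_00198929 had 162, 800 and 773 TPM, with replicate 1 the lowest. TCONS_00109319 had 240, 234 and 1065 TPM, so here replicate 3 stood alone. TCONS_00043315 had 161, 479 and 801 TPM, with replicate 1 the lowest again. In TCONS_00109943 (1248, 776 and 519 TPM) and TCONS_00149667 (944, 510 and 280 TPM) replicate 1 was the highest and replicate 3 the lowest. No single order of the 3 libraries ran through all 12, and their means rest on n = 3 with wide spread.

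Summed over the 223, the TPM were 32695, 11976 and 15702 in WS_4h replicates 1, 2 and 3. These sums were 4.16%, 1.51% and 2.03% of the TPM of all listed lncRNAs in the same libraries. The 10 highest held 74.1% of the sum in replicate 1, 39.5% in replicate 2 and 40.3% in replicate 3. Without the 12 highest the sums came closer together, at 8067, 6533 and 7506 TPM. The library medians were also close, at 8.95, 7.37 and 7.70 TPM, so the excess of replicate 1 lay in the few abundant lncRNAs and not in the whole list.

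The coefficient of variation (CV), the SD over the 3 WS_4h libraries as a percentage of the mean, had a median of 54.2% over the 223 and of 33.6% over the other 4243. In 158 of the 223 the highest library exceeded the lowest by more than 2 times, and in 29 by more than 10 times. The median ratio of highest to lowest was 3.14 in the 223 and 1.95 in the others. Replicate 1 was the highest library for 89 of them, replicate 2 for 52 and replicate 3 for 82. A library above 3 times the next one was found for 13 lncRNAs in replicate 1, 3 in replicate 2 and 13 in replicate 3. Across transcripts, the Pearson correlation of log2 TPM between WS_4h libraries lay between 0.80 and 0.83 for the 223 and between 0.91 and 0.92 for the others, as a description, since transcripts of a library share its depth and handling. The spread was not tested between the lists, because transcripts are not replicates.

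Among lncRNAs of at least 1 TPM, the most variable and the steadiest were found at high and at low levels alike. Besides TCONS_00199384 (CV 159%) and TCONS_00142275 (143%), the highest CVs belonged to TCONS_00109672, with 1.29, 0.58 and 11.5 TPM (137%), and TCONS_00068012, with 0.34, 0.67 and 5.54 TPM (133%). In TCONS_00109672 and TCONS_00068012 replicate 3 held most of the signal. TCONS_00110141 had 5.45, 5.52 and 6.05 TPM (CV 5.78%), the lowest CV of the 223. TCONS_00192124 had 338, 374 and 382 TPM (CV 6.49%), and TCONS_00029639 had 16.6, 16.5 and 18.6 TPM (CV 6.89%). TCONS_00089915 followed with 5.61, 4.72 and 5.18 TPM (CV 8.61%). These lncRNAs were picked for their low CV, and the 0 in all 18 other libraries was set by the rule.

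The edge of the rule was set by low values. The lowest means belonged to TCONS_00109271, with 1.07, 0.18 and 0.58 TPM, and TCONS_00147822, with 1.10, 0.87 and 0.01 TPM. TCONS_00028595 had 0.58, 1.15 and 0.95 TPM, TCONS_00166622 had 1.04, 1.38 and 0.38 TPM, and TCONS_00165976 had 1.88, 0.75 and 0.41 TPM. None of the 223 had a WS_4h mean under 0.5 TPM.

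Just outside the rule were 384 lncRNAs listed at WS_4h and at exactly 1 other time point. In TPM as listed, 359 of them were higher at WS_4h. The larger scale of the WS_4h libraries enters this count, which was not repeated after rescaling. Over all 6098 lncRNAs the median log2 difference of WS_4h from WS_0h was 0.77 as listed and 0 after rescaling. TCONS_00068051 had 87.6, 187 and 106 TPM at WS_4h, against 0.03, 0.04 and 0.15 TPM at WS_8h. TCONS_00166187 had 162, 31.7 and 66.2 TPM at WS_4h, against 0.04, 0.59 and 1.36 TPM at WS_8h. TCONS_00149781 had 125, 97.5 and 117 TPM at WS_4h, against 1, 0.56 and 1.4 TPM at WS_6h. TCONS_00089343 had 94.3, 78.7 and 91.0 TPM at WS_4h, against 1.07, 0.37 and 0.93 TPM at WS_6h. TCONS_00183801 had 109, 79.8 and 76.0 TPM at WS_4h, against 0.68, 1.5 and 0.56 TPM at WS_0h. These near misses were chosen for their ratio and differed from the 223 by low values, up to 1.5 TPM, at 1 further time point. Their libraries did not overlap between both time points, which the choice favoured. Among all near misses, every WS_4h library lay above the others in 65 of the 135 shared with WS_0h. The same held for 26 of the 34 shared with WS_12h.

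How many lncRNAs met the same rule at other time points is shown for comparison. Only at WS_0h 159 lncRNAs were listed, 79 only at WS_2h, 223 only at WS_4h, 61 only at WS_6h, 36 only at WS_8h, 81 only at WS_10h and 64 only at WS_12h. WS_4h thus held 31.7% of the 703 lncRNAs listed at 1 time point. These lists also differed in level: the median of the means was 1.91 TPM only at WS_0h, 2.22 TPM at WS_2h, 8.73 TPM at WS_4h, 1.48 TPM at WS_6h, 2.37 TPM at WS_8h, 3.33 TPM at WS_10h and 2.51 TPM at WS_12h. Above 100 TPM were 30 lncRNAs of the WS_4h list, 12 of the WS_10h list and 0 to 4 of each other list. The scale of the libraries moved with this difference: after rescaling, the median of the 223 was 4.05 TPM. Relative to the median of all lncRNAs listed at the same time point, a ratio in which a common scale cancels, the median was 0.695 times at WS_4h, 0.459 times at WS_0h and 0.420 to 0.979 times at the other 5 time points. By that ratio the WS_4h list was within the range of the others.

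**Figure D2:**
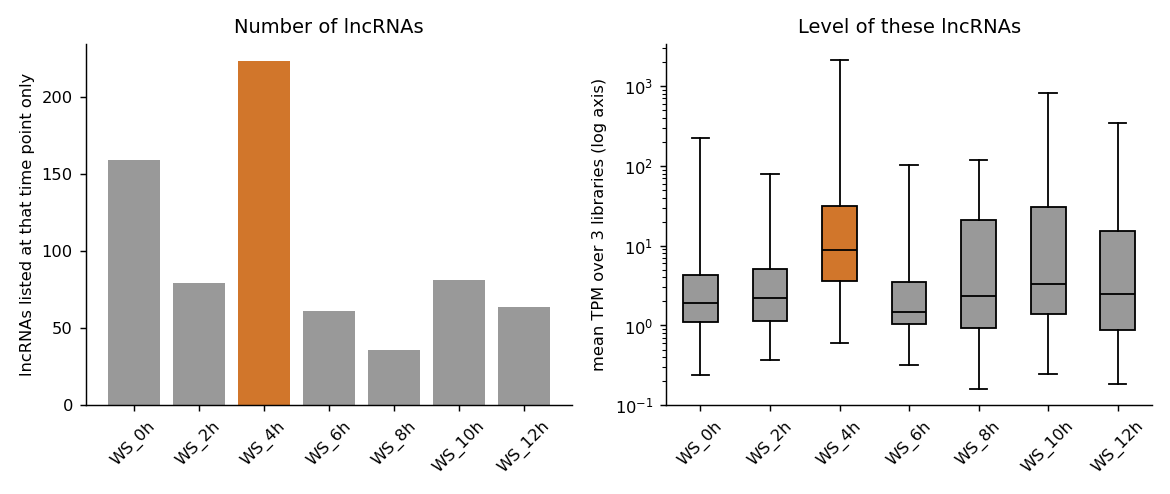
Left, the number of lncRNAs listed above 0 at 1 time point alone, for each of the 7 time points. Right, the mean TPM of these lncRNAs (log axis; line, median; box, quartiles; whiskers, lowest and highest): the 223 lncRNAs of WS_4h have a median of 8.73 TPM, against 1.48 to 3.33 TPM at the other time points.

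Being listed only at WS_4h did not become rare at high levels. Of the lncRNAs listed at WS_4h, the 223 made up 5.24% of those up to 2 TPM, 6.26% from 2 to 5 TPM, 5.91% from 5 to 10 TPM, 4.33% from 10 to 50 TPM, 4.65% from 50 to 100 TPM and 3.84% above 100 TPM. The share listed at all 7 time points was 18.2% up to 2 TPM and 73.3% above 100 TPM. The spread of the lists also parted with level. Up to 2 TPM the median CV was 66.8% in the 223 and 60.3% in the other lncRNAs listed at WS_4h. From 10 to 50 TPM it was 42.9% in the 223 and 29.4% in the others, and from 50 to 100 TPM 38.0% in 18 lncRNAs of the list and 21.6% in the others. Above 100 TPM it was 63.2% in 30 lncRNAs of the list and 19.7% in the others. The median CV of the list thus fell with level up to 100 TPM and was higher again in the top step alone, while in the others it fell throughout.

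**Figure D3:**
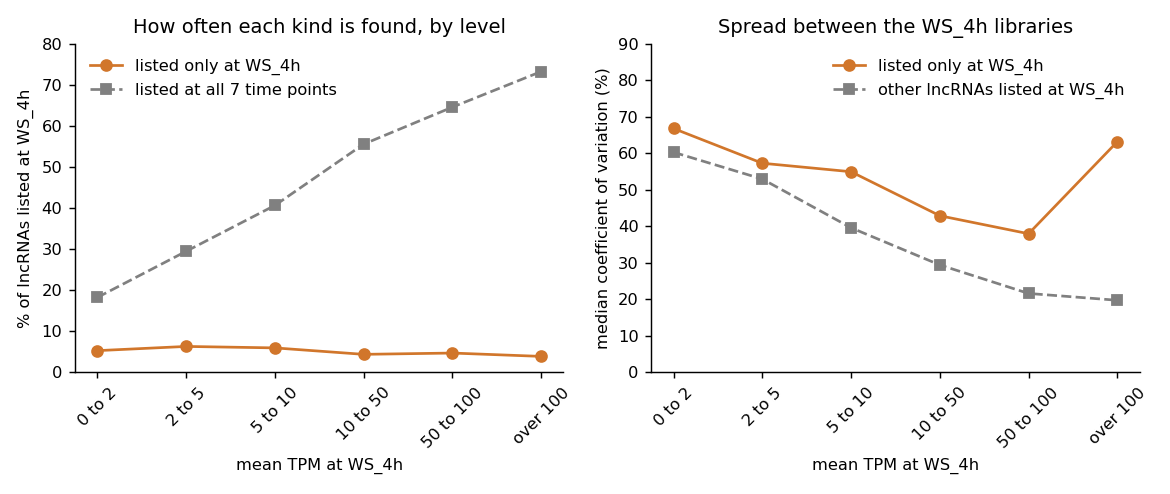
lncRNAs listed at WS_4h, in steps of their mean WS_4h TPM. Left, the percentage listed only at WS_4h (3.84% to 6.26%) and the percentage listed at all 7 time points (18.2% to 73.3%); right, the median CV over the WS_4h libraries of lncRNAs listed only there and of all others, which part above 5 TPM.

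Cuts other than 0 were also counted. The 223 are at 0 elsewhere by the rule, so their part of these counts depends only on their WS_4h values and does not support the list. A cut of 0.5 TPM, passed in all 3 WS_4h libraries and not elsewhere, also gave a count of 223. Of these, 210 were among the 223 listed only at WS_4h and the rest were other lncRNAs. With a cut of 1 TPM there were 266 at WS_4h, 183 of them from the list, against 82 at WS_0h and between 10 and 51 at the remaining 5 time points. The cut of 1 TPM after rescaling, chosen after the data had been seen, gave 186 at WS_4h, 152 of them from the list, against 90 at WS_0h and between 28 and 54 at the remaining 5.

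PCgenes, which the rule did not use and whose libraries were on 1 scale, showed the same time point. Among the 23175 listed PCgenes, 16 were above 0 in all 3 WS_4h libraries and at 0 in the other 18, with means from 3.56 to 14.4 TPM. At each of the other 6 time points 0 PCgenes met that rule. Above 1 TPM at 1 time point only were 203 PCgenes at WS_4h, 1 at WS_0h and 0 at each of the other 5. In the PCgene table zeros did not come by whole time points: 946 combinations had 1 or 2 libraries at 0 and 213 had all 3. What sets the WS_4h libraries apart in both tables was not tested.

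**Figure D4:**
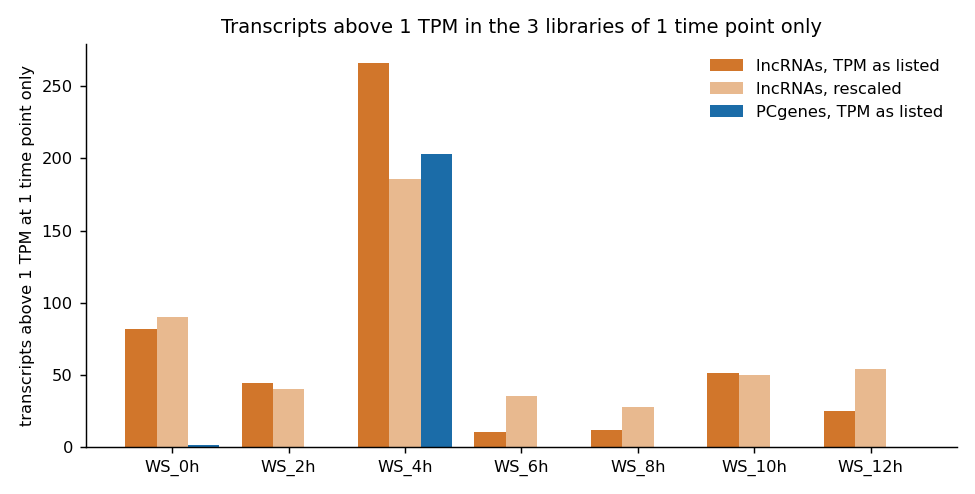
Number of transcripts above 1 TPM in the 3 libraries of 1 time point and not above it in any other, for lncRNAs as listed, lncRNAs after rescaling of the libraries and PCgenes. WS_4h holds 266, 186 and 203 of them, and no other time point more than 90.

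The PCgenes whose profile was most like the summed TPM of the 223 lncRNAs were ranked by Pearson r over the 21 libraries on the log2(TPM + 1) scale. Since the sum is 0 in 18 libraries, this measure rests on the 3 WS_4h libraries against all others and is given as a description. It exceeded 0.9 for 1794 of 22783 PCgenes (7.87%) and lay beyond the same size with a negative sign for 1296 (5.69%). Zm00001d025897 came first (r = 0.9995), with 15.3, 13.0 and 15.0 TPM in WS_4h replicates 1, 2 and 3 and 0 TPM in the 18 others. Ranking was limited to the 22783 PCgenes whose average level across all 21 libraries exceeded 1 TPM. Of the 16 PCgenes listed only at WS_4h, 7 passed this filter, through their WS_4h values alone, and the rest were not ranked. Of the 8 PCgenes with the highest r, 4 were at 0 in all 18 other libraries and 4 had values of up to 0.7 TPM there. Zm00001d043488, the fourth by r (0.998) and one of those at 0 elsewhere, had 15.3, 8.34 and 12.4 TPM at WS_4h. In the opposite direction, Zm00001d027500 (r = -0.988) had 0.21 to 0.94 TPM at WS_4h, against 50.1 to 118 TPM (median 69.4 TPM) in the others. Zm00001d009979 (r = -0.986) had 0.39 to 0.70 TPM at WS_4h, against 5.30 to 8.47 TPM (median 6.85 TPM). These PCgenes were picked for this r, so the lack of overlap between their WS_4h libraries and the others follows from the choice. No source used here pairs the 4 IDs with gene names.

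For the setting of the 223 lncRNAs, the values of a few PCgenes of the flooding response are given from the same libraries, as levels and with no comparison to the list, whose zeros the rule fixed. Of 6 PCgenes of glycolysis and fermentation taken from the study's text, which chose them on these samples, 6 were up-regulated at WS_4h against WS_0h in limma (adjusted p under 0.05 and log2 difference above 1), by 1.69 to 8.92 on the log2(TPM + 1) scale, beside 19.3% of all 22783 PCgenes called up and 23.7% called down. Pyruvate decarboxylase, which opens ethanol fermentation, had 2782, 2443 and 2537 TPM at WS_4h (Zm00001d028759), against 85.9, 85.9 and 90.9 TPM at WS_0h. Its level stayed between 885 and 2339 TPM in the 12 libraries from WS_6h on. Pyruvate decarboxylase 1 (Zm00001d010588) had 447, 830 and 666 TPM at WS_4h, against 0.33, 0.31 and 0.24 TPM at WS_0h and 843 ± 26.7 TPM at WS_12h (SD, n = 3).

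Set against the mean of WS_2h and WS_6h, the time points on either side, 3 of the 6 were called up at WS_4h, beside 14.8% of all PCgenes up and 20.6% down. The log2 difference was 1.15 ± 0.18 (SE) for phosphohexose isomerase 1 (Zm00001d034256), a glycolytic enzyme, with all 3 WS_4h libraries (790 to 896 TPM) above all 6 neighbours (178 to 745 TPM). It was 1.57 ± 0.29 for Zm00001d010588 and 1.05 ± 0.13 for Zm00001d028759 (limma with Benjamini-Hochberg, adjusted p 1.1e-04 and 1.3e-06). For Zm00001d010588 the libraries of WS_4h (447 to 830 TPM) overlapped those of WS_6h (690 to 797 TPM) and lay above those of WS_2h (24.7 to 102 TPM), so it was not higher than at both neighbours. The call of Zm00001d028759 was lost without WS_2h replicate 1 (0.99) or WS_4h replicate 1 (0.999), each just under the bound of 1. Hexokinase 7 (Zm00001d037689, 0.12 ± 0.27), aldolase 2 (Zm00001d012103, 0.02 ± 0.19) and glyceraldehyde-3-phosphate dehydrogenase 4 (Zm00001d017121, 0.07 ± 0.19) did not pass. The means of Zm00001d034256 and Zm00001d028759 were highest at WS_4h among the 7 time points.

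The study also names 6 PCgenes of a MAPK signaling module that it related to WS_4h on these samples. All 6 were up-regulated at WS_4h against WS_0h, beside the 19.3% of all PCgenes, with log2 differences from 1.31 (Zm00001d041920, transcription factor PosF21) to 1.96 (Zm00001d020939, an EIL transcription factor of ethylene signaling). Against the mean of WS_2h and WS_6h 2 of the 6 were called up, beside the 14.8% of all PCgenes. Zm00001d012263, which encodes the stress-activated protein kinase SAPK4, had 13.3, 12.4 and 12.9 TPM at WS_4h, against 2.61 to 2.98 TPM at WS_0h and 2.80 to 5.50 TPM over the libraries of the other 5 time points. Its log2 difference from WS_2h and WS_6h was 1.44 ± 0.13 (limma with Benjamini-Hochberg, adjusted p 1.8e-08), and the WS_4h libraries stood clear of all others. Zm00001d020939 had 84.3, 51.1 and 75.1 TPM at WS_4h, against 13.9 to 40.8 TPM in the WS_2h and WS_6h libraries. The differences of the other 4 ran from -0.51 (Zm00001d041920) to 0.60 (Zm00001d047017) and were not called.

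**Figure D5:**
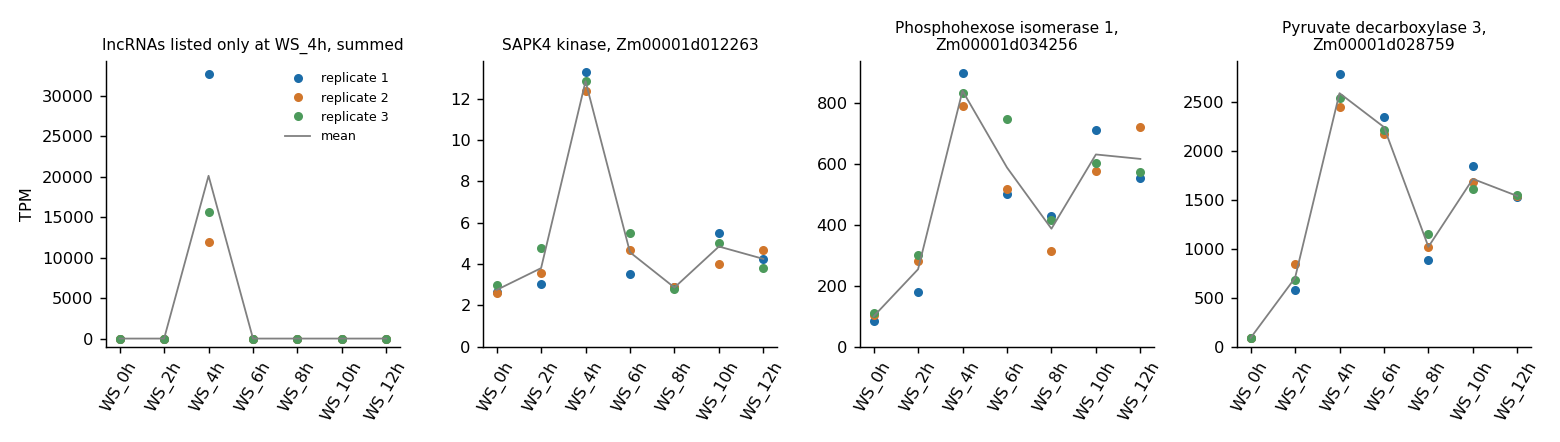
TPM by time point (points, the 3 libraries; grey line, mean) of the 223 lncRNAs summed, of SAPK4 (Zm00001d012263), of phosphohexose isomerase 1 (Zm00001d034256) and of pyruvate decarboxylase 3 (Zm00001d028759). The lncRNA sum is 0 outside WS_4h, SAPK4 is at 12.4 to 13.3 TPM there and at no more than 5.50 TPM elsewhere, and both enzymes stay high to WS_12h.

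All 6098 lncRNAs were fitted in limma as well, to give the background of the contrasts that the rule used. Up-regulation at WS_4h against WS_0h was called for 216 of the 223, beside 39.9% of all lncRNAs up and 13.8% down, and the other 7 had a log2 difference of 1 or less. Against the mean of WS_2h and WS_6h it was 216 of 223 too, beside 46.3% up and 9.99% down. Of all calls, 74.4% were up in the first contrast as listed and 56.6% after rescaling, and 82.3% and 60.3% in the second. The median log2 difference of all lncRNAs was 0.77 in the first contrast as listed and 0 after rescaling, and 1.05 and 0.06 in the second. Nothing is read from the count of 216, which was 223 in both contrasts with a pseudocount of 0.1 TPM and 171 after rescaling, because the rule itself required a 0 in one group and a value above it in the other.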

How the data were processed

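The TPM of lncRNAs were made by the authors with RSEM over transcripts merged from Cufflinks assemblies, after filters on length, open reading frames, coding potential (CPC2), position relative to genes and a mean TPM under 0.5. The deposited TPM of PCgenes were made by the authors from HISAT2 2.0.5 alignments to B73 RefGen_v4 and featureCounts, and the tables were normalized separately. Whether counting used strand is not given in the sources used here. TPM keep no read depth, so the depth is unknown and precision rests on the spread of 3 libraries, each a pool of root tips. Members were found by the rule in Python 3.11.15 (numpy 2.4.6, pandas 2.3.3), and drawings used matplotlib 3.10.9. Differences were fitted on log2(TPM + 1) with limma 3.58.1 in R 4.3.3: 1 mean per time point, all 21 libraries, a mean-variance trend, no replicate block, PCgenes with a mean above 1 TPM (22783) and all 6098 lncRNAs. A call needed a Benjamini-Hochberg adjusted p under 0.05, two-sided, and a log2 difference above 1 in absolute value. The fits were tested on simulated data with normal noise. The simulation had no zeros by whole time point and no larger scale at WS_4h, so it does not cover these traits of the lncRNAs.

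Members and lists were chosen with earlier results of these data known. Named are the 12 highest and 5 lowest means, the 4 highest and 4 lowest CVs at 1 TPM or more, 2 runs of consecutive IDs (the longest by rule; all 9 runs held 2 members, so the 2 with the lowest ID numbers were taken), 5 near misses, the highest lncRNA of each other single time point list, PCgenes most like the members (2 in each direction of the 8 and 4 of the rule, and 2 of the 16 listed only at WS_4h, since names are lacking) and 2 PCgene lists. Alternatives were a pseudocount of 0.1 TPM, only the compared time points, no trend, the replicate block, median-ratio rescaling, other filters and cuts, and leaving out each library. Tissue markers and transcript sequences were not used here.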

Additional observations from a re-analysis of the deposited data

How the results depend on the processing

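The number of lncRNAs listed only at WS_4h was 223 when any 1 of the 21 libraries was left out. This was fixed in advance, because zeros came by whole time points, so it says nothing on stability. Their median level of 8.73 TPM was 7.69 TPM with the median of the 3 libraries and 4.05 TPM after median-ratio rescaling, and their median CV of 54.2%, which falls by construction with 2 libraries, was 39.3% without WS_4h replicate 1 to 47.4% without WS_4h replicate 2. PCgenes with r above 0.9 numbered 1794, and 7 with Spearman rho, where the 18 tied zeros limit the value any untied PCgene can reach; they ranged from 994 (without WS_4h replicate 1) to 1311 (without WS_4h replicate 2). Up-regulated lncRNAs against the mean of WS_2h and WS_6h numbered 2826, and 1623 after rescaling. With a filter on mean TPM above 5, up-regulated PCgenes numbered 2800 against WS_0h and 1879 against the neighbours, where 4390 and 3382 were called with the filter at 1 TPM, and 14621 instead of 22783 were tested. PCgenes listed only at WS_4h numbered 16, 54 with a cut of 0.5 TPM and 203 with 1 TPM. The PCgene cuts, the cut after rescaling and the comparison with 0.357 TPM were chosen after seeing the data. Between WS_4h and WS_0h, libraries of the same replicate number had correlations of deviations of -0.0084, -0.01 and -0.0014 in lncRNAs. In PCgenes these were 0.061, -0.149 and -0.041. Over all pairs of time points, same-number correlations ran from -0.687 to 0.622 in lncRNAs and from -0.258 to 0.619 in PCgenes. Their means were -0.0053 and 0.052, against 0.0014 and -0.025 for different numbers. Whether the replicate numbers pair the libraries was not tested. With the replicate block 2415 lncRNAs were up-regulated at WS_4h against WS_0h, with 2436 without it. The depth behind the values is unknown. A reversal of direction was looked for only in the 2 PCgene lists, and only where either run gave a call, and none was found.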

Other observations

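The 223 lncRNAs were also placed by the ID numbers of the assembly. In windows of 1000 ID numbers, 18 of the 201 windows with any lncRNA held over 60 lncRNAs each, and 197 of the 223 (88.3%) fell in these 18, against 75.2% of all lncRNAs. Of lncRNAs listed only at 1 other time point it was 81.3%, and of the other lncRNAs listed at WS_4h 76.2%. What the windows stand for in the genome was not analysed here. Members with directly consecutive numbers formed 9 pairs, of which the 2 with the lowest numbers are given. TCONS_00067874 and TCONS_00067875 had 306, 484 and 232 TPM and 126, 62.2 and 142 TPM in WS_4h replicates 1, 2 and 3, so the library highest for the first was the lowest for the second. TCONS_00068367 and TCONS_00068368 had 13.4, 13.1 and 17.4 TPM and 6.55, 5.42 and 4.78 TPM.

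The highest lncRNAs of the other single time point lists were TCONS_00089836 at WS_0h, with 256, 238 and 183 TPM in replicates 1, 2 and 3, and TCONS_00166482 at WS_2h, with 91.0, 95.1 and 48.3 TPM. At WS_6h it was TCONS_00165915, with 140, 16.8 and 152 TPM, and at WS_8h TCONS_00166554, with 23.4, 122 and 206 TPM. TCONS_00184055 led at WS_10h, with 1769, 310 and 375 TPM, and TCONS_00199417 at WS_12h, with 28.7, 159 and 847 TPM. From WS_6h on the libraries of these lncRNAs differed by several fold, as among the abundant lncRNAs of WS_4h.

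Of the 384 lncRNAs listed at WS_4h and 1 other time point, 135 shared it with WS_0h, 60 with WS_2h, 67 with WS_6h, 26 with WS_8h, 62 with WS_10h and 34 with WS_12h. Their median WS_4h mean ran from 3.62 TPM (shared with WS_0h) to 7.15 TPM (shared with WS_8h), below the 8.73 TPM of those listed only at WS_4h.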
